A study of Mus musculus with 50 samples.

Results

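The set described here comprised 10 genes in 48 mouse sarcomas: the matrix metalloproteinases (MMPs) Mmp2, Mmp3, Mmp9, Mmp10, Mmp12, Mmp13 and Mmp14, and the tissue inhibitors of metalloproteinases (TIMPs) Timp1, Timp2 and Timp3. The set holds 10 of the 37469 genes in the count table, found by matching each Ensembl identifier to its symbol. It was chosen by the log2 scaled counts of Mmp10 and Mmp13 in irradiated transplants given isotype antibody, which were already known to stand out. Comparisons of that group are therefore given as a description, with no test. All 10 genes passed the filter on low counts and were tested in every other comparison.

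Every tumor was a p53/MCA sarcoma of the gastrocnemius muscle. Primary tumors were induced in Trp53 fl/fl mice of 6 to 10 weeks by intramuscular adenovirus expressing Cre recombinase and the carcinogen 3-methylcholanthrene (MCA), so that each arose in the mouse it was taken from. Transplant tumors all grew from 50000 cells of 1 line, 402230, placed in the same muscle of syngeneic mice, so they represent a single tumor of origin. The tumor cells of all 8 groups thus carry the Trp53 deletion. Each tumor-bearing mouse was given muDX400, an antibody that blocks PD-1 on T cells, or an isotype antibody, then 0 or 20 Gy to the limb with the tumor, and the tumor was harvested 3 days later. There were 8 primary and 4 transplant tumors for each of the 4 treatments: 0 Gy with isotype, 0 Gy with anti-PD-1, 20 Gy with isotype, and 20 Gy with anti-PD-1. There were also 2 single libraries of line 402230, labelled as the parental primary tumor and as the cell line.

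MMPs are zinc-dependent proteases that cut extracellular matrix and many secreted or cell-surface proteins, and most are made as inactive proenzymes. Mmp13 is a collagenase, Mmp3 and Mmp10 are stromelysins that also activate other proMMPs, Mmp2 and Mmp9 are gelatinases, Mmp12 is the macrophage metalloelastase, and Mmp14 is a membrane-bound MMP that activates proMMP-2. TIMPs bind the active site of MMPs, and Timp2 also takes part in the activation of proMMP-2 by Mmp14. In tumors these genes are made by cancer cells, fibroblasts and myeloid cells. In bulk RNA, a change in the number of cells of a type and a change in the RNA per cell cannot be told apart.

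Levels are given as CPM, the counts of a gene scaled to a fixed library total after correction for library composition. Total counts per tumor ran from 31810461 to 54008259. Trp53, counted over all exons and all cells of the tumor, ran from 20.2 to 60.7 CPM. Macrophage, fibroblast and endothelial markers were present in all 8 tumor groups. Summed levels of 8 skeletal muscle markers ran from 12.9 to 75938 CPM, and the 3 highest tumors, at 24513, 43823 and 75938 CPM, were irradiated primaries. The 2 line libraries went against their labels: the library labelled as the parental tumor had Ptprc, the pan-leukocyte gene, at 0.114 CPM and the macrophage gene Adgre1 at 0, whereas the library labelled as the cell line had Ptprc at 81.6 CPM and Adgre1 at 60.2 CPM. Neither entered a main comparison between groups. The library labelled as the parental tumor was added to the untreated primaries only in an alternative fit, despite its lack of leukocyte RNA.

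Mmp3, Mmp10, Mmp12 and Mmp13 lie together on chromosome 9 of GRCm38 within 238 kb, and the bases just before their start sites are shown because these genes lie in one cluster and such promoters are known for AP-1 sites. Sequences are from the RefSeq table for GRCm38.p6, which held 8 of the 10 genes. The last 150 bases before the RefSeq start are given 5′ to 3′, with capitals for the AP-1 letters (TGAGTCA, or TGACTCA on the other strand) and for TATAAA, and Timp1 is shown beside them.
Mmp13 (chr9:7272364-7272513, + strand): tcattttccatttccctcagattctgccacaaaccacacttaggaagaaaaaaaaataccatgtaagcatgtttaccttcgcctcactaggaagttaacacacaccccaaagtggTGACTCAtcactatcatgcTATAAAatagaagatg
Mmp3 (chr9:7445672-7445821, + strand): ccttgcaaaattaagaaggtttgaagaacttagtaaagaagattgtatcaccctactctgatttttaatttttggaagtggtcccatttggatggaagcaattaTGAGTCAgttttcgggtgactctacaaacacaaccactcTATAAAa
Mmp10 (chr9:7502192-7502341, + strand): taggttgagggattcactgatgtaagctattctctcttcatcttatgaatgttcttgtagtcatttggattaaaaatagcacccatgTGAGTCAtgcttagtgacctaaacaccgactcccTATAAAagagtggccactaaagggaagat
Mmp12, second start (chr9:7347224-7347373, + strand): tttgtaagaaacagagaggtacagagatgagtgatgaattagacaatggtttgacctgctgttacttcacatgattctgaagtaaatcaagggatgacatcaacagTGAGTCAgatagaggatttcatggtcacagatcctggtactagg
Timp1 (chrX:20870016-20870165, + strand): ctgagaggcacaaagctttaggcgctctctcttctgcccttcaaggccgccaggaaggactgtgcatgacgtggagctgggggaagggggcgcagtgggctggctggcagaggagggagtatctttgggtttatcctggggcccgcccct
In the 250 bases before the start, searched on both strands for AP-1 and on the gene's strand for TATAAA, the AP-1 letters lay at -46 to -40 in Mmp3, -63 to -57 in Mmp10, -44 to -38 before the second start of Mmp12, and -35 to -29 in Mmp13. TATAAA lay at -7 to -2 in Mmp3, -29 to -24 in Mmp10 and -16 to -11 in Mmp13. The letters of both motifs do not overlap in any of them, and neither motif was in the windows of Mmp14, Timp1, Timp2 and Timp3 or before the first start of Mmp12. Of 32851 promoter windows of that length in the table, 4.46% held the AP-1 letters and 7.59% held TATAAA. A match of letters is a description and not a measured binding site.

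Levels were compared between genes as CPM per kilobase of exon. By the median over the 48 tumors, Timp1 was highest at 370.5 CPM per kb, followed by Mmp2 at 219, Timp2 at 206, Mmp14 at 86.1 and Mmp3 at 73.1. Mmp9 at 33.3, Timp3 at 18.8, Mmp10 at 12.5, Mmp13 at 5.90 and Mmp12 at 1.09 CPM per kb were lower. The ranges of all neighbours in this order overlapped widely. The genes differed more in how far they varied: the highest tumor held 2183 times the CPM of the lowest for Mmp10, 541 times for Mmp3 and 229 times for Mmp13, but 3.10 times for Mmp14 and 5.24 times for Timp2.

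**Figure D1:**
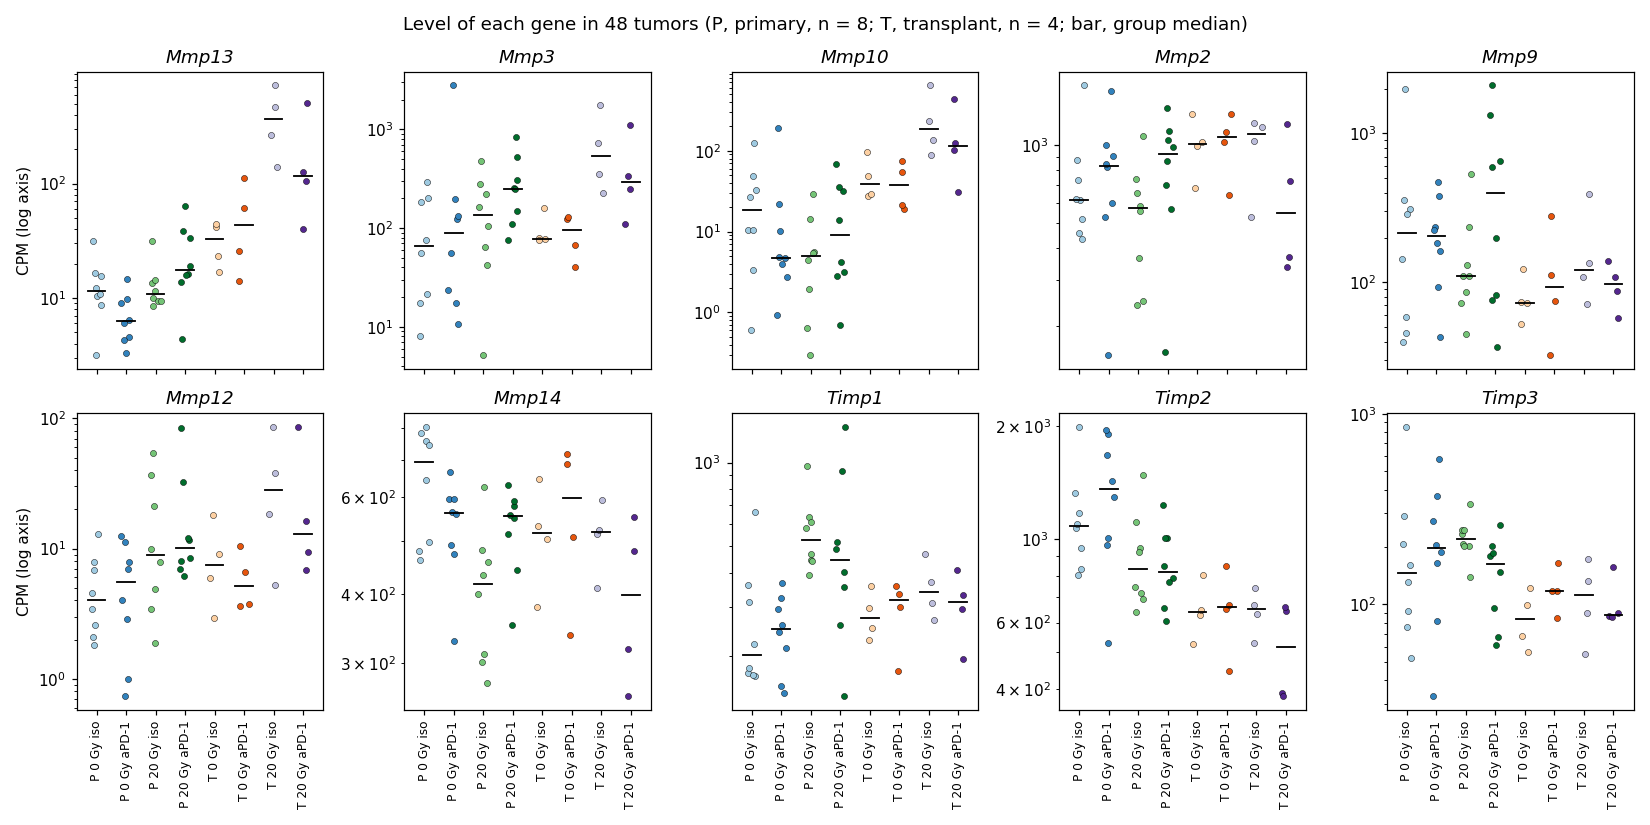
Level of each of the 10 genes in every tumor, as CPM on a log axis, by tumor model (P, primary; T, transplant), dose and antibody (iso, isotype; aPD-1, anti-PD-1); points are single tumors and bars are group medians. Mmp13 and Mmp10 are highest in the irradiated transplants, at 139.9 to 722 CPM and 88.6 to 644 CPM with isotype, whereas Mmp14 stays within 260.5 to 807 CPM in all 48 tumors.

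Much of this spread lay within groups. Within groups of primary tumors the SD of log2 CPM was 2.26 for Mmp10 and 1.97 for Mmp3, against a median of 0.52 over all genes tested, which placed them at percentiles 98.9 and 98 of those genes. Mmp13 was nearer to other genes among primaries, with an SD of 0.88 at percentile 77.9, and more variable among transplants, with an SD of 1.18 at percentile 94.1. Mmp14 and Timp2 were as steady as most genes, with SDs of 0.34 and 0.46 in primaries and 0.41 and 0.33 in transplants.

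Comparing transplants with primaries, Mmp13 was higher in transplants in both groups given anti-PD-1, and Timp2 was lower in transplants in both groups at 0 Gy. Of the 10 genes, 1 passed the test without treatment (Timp2, lower), where 10.3% of all 19327 genes passed. With anti-PD-1 alone 2 passed (Mmp13 higher, Timp2 lower), against 7.35% of all genes. After 20 Gy with anti-PD-1 1 passed (Mmp13, higher), against 6.76% of all genes. After 20 Gy with isotype, the comparison for which the set was known, 5 genes differed by at least 2-fold, 4 higher and 1 lower in transplants, and 14.9% of all genes differed by that fold. The threshold was a Benjamini-Hochberg adjusted p under 0.05 from edgeR's quasi-likelihood test over all genes.

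Comparing 20 Gy with 0 Gy, Timp1 rose in primaries with either antibody. In primaries given isotype, 2 of 10 passed (Timp1 higher, Mmp14 lower), against 18.3% of all genes. In primaries given anti-PD-1, 3 of 10 passed (Mmp13 and Timp1 higher, Timp2 lower), against 11.2% of all genes. In transplants given anti-PD-1, 0 of 10 passed with edgeR, with DESeq2 or with limma voom, and 0.595% of all genes passed with edgeR. An unadjusted edgeR p under 0.05 was found there for 2 of the 10 and for 2540 of all 19327 genes. In transplants given isotype, 5 genes differed by at least 2-fold, all of them higher, and 10.8% of all genes differed by that fold. This is again the group that was already known. Comparisons that share a group share its libraries, so they are not independent. The median log2 fold change of the 10 genes was 0.76 in that last comparison and -0.06 in transplants given anti-PD-1, where the medians of all genes were -0.03 and 0.01.

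Anti-PD-1 against isotype gave 0 of 10 calls in each of the 3 tested pairs of groups with edgeR, DESeq2 and limma voom, and 0% of all genes passed with edgeR. Genes with an unadjusted p under 0.05 numbered 1 in primaries at 0 Gy (Mmp3), 2 in primaries at 20 Gy (Mmp9 and Mmp14), and 0 in transplants at 0 Gy. Mmp3 in primaries at 0 Gy differed by 1.96 ± 0.850 on the log2 scale, with an adjusted p = 1.0 from edgeR. The Mmp3 estimate included 1 tumor at 2784 CPM among those given anti-PD-1, and the medians were 89.4 CPM with anti-PD-1 and 65.5 CPM with isotype. Over 23 alternatives that estimate ran from 0.50 to 2.11. Mmp9 in irradiated primaries differed by 1.93 ± 0.709, with an adjusted p = 0.390 from edgeR. In irradiated transplants, a description since the isotype group was already known, 1 of 10 genes differed by at least 2-fold, against 6.56% of all genes. That gene was Mmp13, lower with anti-PD-1 by a log2 fold change of -1.04 ± 0.660, and of -2.15 without anti-PD-1 replicate 1.

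**Figure D2:**
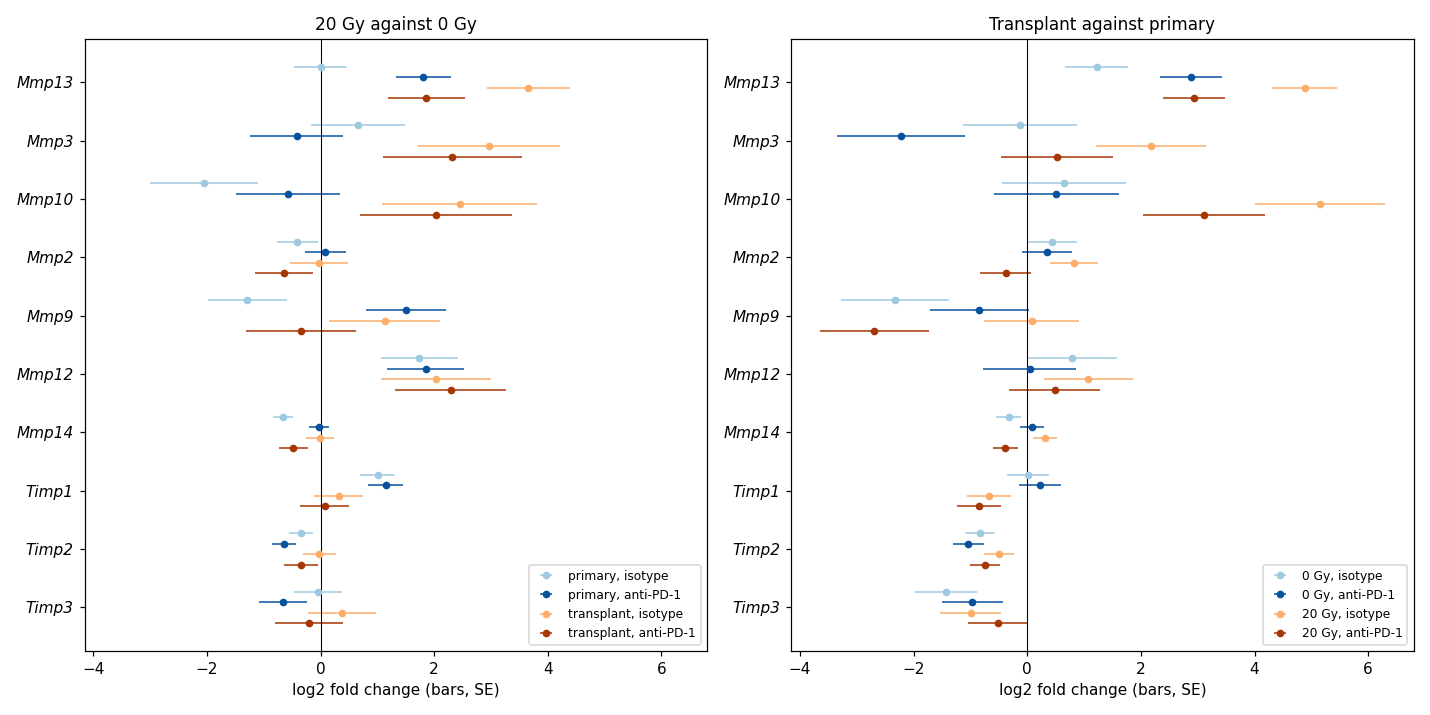
Log2 fold change of each gene for 20 Gy against 0 Gy (left) and for transplant against primary (right), each in 4 pairs of groups; points are estimates from 1 edgeR model and bars are SE. Mmp13 lies to the right in transplants, at 3.66 with isotype and 1.86 with anti-PD-1, and Timp1 lies to the right in primaries, at 1.01 and 1.15.

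Mmp13 (ENSMUSG00000050578.10, chromosome 9, 7272514 to 7283331, + strand), the interstitial collagenase of the set, was low in primaries and unirradiated transplants. In untreated transplants it stood at 41.8, 23.2, 44.6 and 16.9 CPM (replicates 1 to 4, the order used throughout), and after 20 Gy with isotype at 722, 139.9, 470.5 and 266 CPM. All 4 irradiated tumors were above all 4 untreated ones, a log2 fold change of 3.66 ± 0.727 (SE), or 12.6-fold. In the sample titles, the numbers of irradiated replicates 1, 3 and 4 start with other digits than those of all 4 untreated tumors. Irradiated replicate 2, the lowest at 139.9 CPM, starts as the untreated tumors do. What these numbers stand for is not given, so dose and number series are partly confounded here, and their part was not tested. Primaries after the same treatment ran from 8.47 to 31.6 CPM with a median of 10.9, so the transplants lay 29.5-fold higher and did not overlap them.

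The anti-PD-1 arms are separate tumors. Transplants given anti-PD-1 held 14.0, 61.7, 112.996 and 26.0 CPM of Mmp13 at 0 Gy and 508, 40.2, 126.3 and 104.9 CPM at 20 Gy. Only 2 of the 4 irradiated tumors were above all unirradiated ones, and the log2 fold change of 1.86 ± 0.675 did not pass (edgeR adjusted p = 0.184). It was 0.75 without irradiated replicate 1, the tumor at 508 CPM. The title number of that tumor starts like those of irradiated isotype replicates 1, 3 and 4, unlike the rest of its group. Unirradiated replicate 2, at 61.7 CPM, starts so too. Primaries given anti-PD-1 ran from 3.30 to 14.7 CPM with a median of 6.24 at 0 Gy, and from 4.38 to 63.8 CPM with a median of 17.6 at 20 Gy. Here 6 of 8 irradiated tumors were above all 8 unirradiated ones, and Mmp13 rose by 1.81 ± 0.480 on the log2 scale (edgeR adjusted p = 0.0108). With limma voom the adjusted p was 0.0723, the highest over 23 alternatives that began at 0.00143. In primaries given isotype the log2 fold change was 0.00 ± 0.47, with medians of 11.6 CPM at 0 Gy and 10.9 CPM at 20 Gy.

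Between models, Mmp13 was 7.36-fold higher in transplants at 0 Gy with anti-PD-1 (log2 2.88 ± 0.551, edgeR adjusted p = 0.000743) and 7.61-fold higher at 20 Gy with anti-PD-1 (log2 2.93 ± 0.549, edgeR adjusted p = 0.00198), with 3 of 4 transplants above all 8 primaries in each. Untreated transplants had a log2 fold change of 1.22 ± 0.550 that did not pass (edgeR adjusted p = 0.152). The call at 20 Gy rested on replicate 1 of the transplants: without it the log2 fold change was 1.81 with an edgeR adjusted p = 0.0528, within a range of 6.06e-05 to 0.102 over 23 alternatives. The difference in radiation response between models was 0.05 ± 0.809 with anti-PD-1 (edgeR adjusted p = 0.997) and, as a description, 3.66 ± 0.838 with isotype.

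Osteoblasts and hypertrophic chondrocytes are cell types known for Mmp13. Of 8 markers of those types 2, Ibsp and Bglap, passed as higher in transplants in all 3 tested comparisons of the models. In these 10.3%, 7.35% and 6.76% of all genes passed. The median log2 fold change of the 8 was -0.10 at 0 Gy with isotype, 1.10 at 0 Gy with anti-PD-1 and -1.12 at 20 Gy with anti-PD-1. At 0 Gy with anti-PD-1 Ibsp averaged 56.0 ± 111.8 CPM (SD, n = 4) in transplants and 0.259 ± 0.433 CPM (SD, n = 8) in primaries. In all 3 comparisons the SD of either gene among the 4 transplants exceeded its mean. Bglap, for example, averaged 1.31 ± 2.46 CPM in untreated transplants. The sum of the 8 markers ran from 41.7 to 879 CPM in irradiated isotype transplants, 39.6 to 165 CPM in untreated transplants, 85.8 to 229 CPM in untreated primaries and 40.5 to 215 CPM in irradiated isotype primaries. It was 879 CPM in replicate 3 of the irradiated isotype transplants, where Mmp13 was 470.5 CPM, but 42.5 CPM in replicate 1, where Mmp13 was 722 CPM. Without that replicate 3, the radiation difference of Mmp13 was 3.58 on the log2 scale. Macrophage markers also moved with dose: their sum was 3482 to 4962 CPM in the irradiated isotype transplants and 2479 to 2861 CPM in the untreated ones, with all 8 markers present in both groups. Their part in the result was not tested.

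Mmp3 (ENSMUSG00000043613.8, chromosome 9, 7445822 to 7455975, + strand), stromelysin-1, cuts proteoglycans and fibronectin and activates other proMMPs. It stood at 161, 79.3, 76.7 and 75.3 CPM in untreated transplants and at 1776, 349.6, 224 and 729 CPM after 20 Gy with isotype. The irradiated tumors were all above the untreated ones, a log2 fold change of 2.97 ± 1.25 (SE), which was 2.19 without irradiated replicate 1. With anti-PD-1, transplants held 40.0, 122.7, 67.0 and 129.96 CPM at 0 Gy and 1098, 109.7, 336 and 248 CPM at 20 Gy. In these 3 of 4 irradiated tumors were above all unirradiated ones, but the log2 fold change of 2.32 ± 1.22 did not pass (edgeR adjusted p = 0.414), and it was 1.37 without irradiated replicate 1.

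In primaries, Mmp3 ran from 8.02 to 292 CPM (median 65.5) without treatment and from 5.15 to 473 CPM (median 134.8) after 20 Gy. With anti-PD-1 it ran from 10.6 to 2784 CPM (median 89.4) at 0 Gy and from 76.3 to 837 CPM (median 251) at 20 Gy. The groups overlapped throughout, and no comparison of Mmp3 passed. The tumor at 2784 CPM was the highest of all 48 and belonged to a primary that had received no radiation.

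Mmp10 (ENSMUSG00000047562.3, chromosome 9, 7502352 to 7510240, + strand), stromelysin-2, stood at 96.2, 48.8, 27.7 and 28.9 CPM in untreated transplants and at 644, 136.1, 88.6 and 234 CPM after 20 Gy with isotype. In 3 of 4 irradiated tumors it was above all untreated ones, a log2 fold change of 2.45 ± 1.36 (SE), which was 1.65 without irradiated replicate 1. With anti-PD-1 the transplants held 19.3, 54.1, 21.2 and 75.5 CPM at 0 Gy and 436, 31.3, 125.9 and 101.9 CPM at 20 Gy, and the log2 fold change of 2.03 ± 1.34 did not pass (edgeR adjusted p = 0.548) and was 1.03 without irradiated replicate 1. Replicate 1 of both irradiated transplant groups was the highest of its group for Mmp3, Mmp10, Mmp12 and Mmp13.

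Irradiated primaries held little Mmp10. With isotype they ran from 0.295 to 29.0 CPM with a median of 5.01, and untreated primaries ran from 0.602 to 124.7 CPM with a median of 18.6. All 4 irradiated isotype transplants were above all 8 irradiated isotype primaries, a 35.5-fold difference (log2 5.15 ± 1.15, and 4.32 without transplant replicate 1). In the separate tumors given anti-PD-1, irradiated primaries ran from 0.704 to 68.1 CPM with a median of 9.02. There 3 of 4 transplants were above all 8 primaries, and the log2 fold change of 3.11 ± 1.08 just missed the threshold (edgeR adjusted p = 0.0688). DESeq2 and limma voom gave adjusted p-values of 0.0381 and 0.0187 for it, within a range of 0.0187 to 0.283 over 23 alternatives.

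Mmp2 (ENSMUSG00000031740.8, chromosome 8, 92827291 to 92853420, + strand), gelatinase A, was abundant and passed in no tested comparison. Untreated transplants held 1321, 996, 1028 and 685 CPM and irradiated isotype transplants 527, 1035, 1174 and 1222 CPM. Primaries ran from 434 to 1706 CPM (median 616) untreated and from 241 to 1091 CPM (median 570.3) after 20 Gy. The groups overlapped, and the log2 fold change for radiation in primaries was -0.41 ± 0.36 (edgeR adjusted p = 0.446). Irradiated isotype transplants differed from irradiated isotype primaries by 0.82 ± 0.429 on the log2 scale, as a description.

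Mmp9 (ENSMUSG00000017737.2, chromosome 2, 164940780 to 164955850, + strand), gelatinase B, reached its highest levels in single primary tumors. Untreated primaries ran from 39.7 to 2003 CPM with a median of 215, and primaries given 20 Gy with anti-PD-1 ran from 37.1 to 2103 CPM with a median of 397. Untreated transplants held 73.8, 72.4, 123.6 and 52.2 CPM and transplants given 20 Gy with anti-PD-1 held 108.5, 87.6, 57.3 and 139.1 CPM. The transplants lay inside the range of the primaries in both cases. The log2 fold changes between models were -2.33 ± 0.947 (edgeR adjusted p = 0.106) and -2.69 ± 0.967 (edgeR adjusted p = 0.0776). DESeq2 put both past the threshold, with adjusted p-values of 0.0290 and 0.0135, over alternatives that ran from 0.0290 to 0.384 and from 0.0135 to 0.256.

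Mmp12 (ENSMUSG00000049723.14, chromosome 9, 7344381 to 7369499, + strand), the macrophage elastase, was the lowest of the set per kilobase, and its log2 estimates for radiation lay between 1.74 and 2.29 in all 4 pairs of groups. In primaries it ran from 1.81 to 13.0 CPM (median 4.0) untreated and from 1.88 to 54.4 CPM (median 8.97) after 20 Gy with isotype. The log2 fold change was 1.74 ± 0.681 with isotype (edgeR adjusted p = 0.0685) and 1.85 ± 0.682 with anti-PD-1 (edgeR adjusted p = 0.0702), so neither passed. DESeq2 gave 0.0240 and 0.0241, over alternatives from 0.0240 to 0.267 and from 0.0241 to 0.137. Irradiated isotype transplants held 85.8, 18.4, 5.29 and 38.1 CPM against 18.2, 9.05, 2.95 and 5.94 CPM untreated, with 3 of 4 above all untreated tumors. That log2 fold change was 2.03, and 1.24 without irradiated replicate 1. With anti-PD-1 it was 2.29 ± 0.979 (edgeR adjusted p = 0.288), and 0.84 without irradiated replicate 1. Mmp12 overlaps Mmp1b on the opposite strand, and the strand setting of the counting is not given in the sources used here, so reads of the 2 genes may have been mixed.

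Mmp14 (ENSMUSG00000000957.11, chromosome 14, 54431612 to 54445364, + strand), the membrane-type MMP, fell after radiation in primaries given isotype. It ran from 461 to 807 CPM (median 695) untreated and from 275 to 625 CPM (median 417) after 20 Gy, with 6 of 8 irradiated tumors below all 8 untreated ones (log2 -0.66 ± 0.177, edgeR adjusted p = 0.00753). With anti-PD-1 the primaries had medians of 561 and 554 CPM and differed by -0.02 ± 0.177 on the log2 scale (edgeR adjusted p = 0.963). In transplants given isotype, levels of 647, 531, 503 and 378 CPM untreated stood against 410.3, 513, 522 and 593 CPM irradiated, and the 2 groups overlapped. In the model restricted to the 2 primary isotype groups, the adjusted p for Mmp14 was 0.0516, the highest over 23 alternatives that began at 0.00656.

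Timp1 (ENSMUSG00000001131.11, chromosome X, 20870166 to 20874735, + strand), a secreted inhibitor of most MMPs, rose after radiation in primaries with either antibody. With isotype it ran from 169.7 to 665 CPM (median 201) at 0 Gy and from 391 to 976 CPM (median 524) at 20 Gy (log2 1.01 ± 0.308, edgeR adjusted p = 0.0179). Only 1 of 8 irradiated tumors was above all untreated ones, because 1 untreated primary reached 665 CPM. With anti-PD-1 it ran from 147 to 367 CPM (median 252) at 0 Gy and from 142.996 to 1350 CPM (median 445) at 20 Gy, and 5 of 8 irradiated tumors were above all unirradiated ones (log2 1.15 ± 0.309, edgeR adjusted p = 0.0120). That call was lost with limma voom (adjusted p = 0.0568) and with only the 2 groups in the fit (adjusted p = 0.0778), the highest over 23 alternatives that began at 0.00155. Transplants given isotype held 298, 359, 229 and 253 CPM at 0 Gy and 465.9, 269, 369 and 311 CPM at 20 Gy, with overlap (log2 0.32 ± 0.432). With anti-PD-1 the transplants differed by 0.07 ± 0.432 (edgeR adjusted p = 0.972). The difference in response between models with anti-PD-1 was -1.07 ± 0.531, which did not pass (edgeR adjusted p = 0.991). Median sums of macrophage and neutrophil markers were higher at 20 Gy in the primaries given isotype. For 8 macrophage markers they were 2515 CPM at 0 Gy and 4294 CPM at 20 Gy, and for 8 neutrophil markers 31.2 and 129 CPM. The neutrophil markers were not uniform: Cxcr2 and Csf3r passed as higher, but Ngp passed as lower (log2 -3.20 ± 1.16, edgeR adjusted p = 0.0485). The part of either set of markers in the result was not tested.

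Timp2 (ENSMUSG00000017466.9, chromosome 11, 118301069 to 118355740, - strand), the inhibitor that also takes part in proMMP-2 activation, was lower in transplants than in primaries at 0 Gy. Untreated transplants held 803, 629, 648 and 527 CPM against 801 to 1998 CPM (median 1087) in untreated primaries, with 3 of 4 below all 8 (log2 -0.83 ± 0.267, edgeR adjusted p = 0.0388). With anti-PD-1 alone, transplants held 447, 851, 652 and 669.8 CPM against 529 to 1953 CPM (median 1362), with 1 of 4 below all 8 (log2 -1.04 ± 0.270, edgeR adjusted p = 0.0125). Fibroblast markers moved the same way: the sum of 7 was 2734 to 4449 CPM in untreated transplants and 4073 to 14098 CPM in untreated primaries, all 7 were present in both groups, and Lum and Dpt passed as lower. Their part in the result was not tested. At 20 Gy with anti-PD-1 the log2 fold change was -0.74 ± 0.266 (edgeR adjusted p = 0.0779). In primaries given anti-PD-1, Timp2 fell after radiation from a median of 1362 to 818 CPM (log2 -0.64 ± 0.211, edgeR adjusted p = 0.0425), with overlap of the groups, and this call held in 15 of 23 alternatives, whose adjusted p-values ran from 0.0292 to 0.136. The call in untreated tumors was lost without any 1 of the 4 untreated transplants, with adjusted p-values of 0.0514 to 0.167 in a range of 0.0191 to 0.167 over 23 alternatives. Without replicate 1 of the transplants given anti-PD-1 alone, the call in that arm had an adjusted p of 0.0947, the highest over its 23 alternatives, which began at 0.00168.

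Timp3 (ENSMUSG00000020044.13, chromosome 10, 86300372 to 86349506, + strand), the matrix-bound inhibitor, passed in no comparison. Untreated transplants held 68.6, 99.4, 122.6 and 56.1 CPM against 52.4 to 856 CPM (median 147) in untreated primaries, and the 2 groups overlapped (log2 -1.43 ± 0.553, edgeR adjusted p = 0.0887). DESeq2 gave 0.0454 for this difference, over alternatives from 0.0454 to 0.266. Timp1 and Timp3 overlap Syn1 and Syn3 on the opposite strand, and Timp2 overlaps Cep295nl on its own strand, so reads in the shared stretches are uncertain.

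Of 5 pairs of members compared from tumor to tumor, 2 passed in both models, Mmp3 with Mmp10 and Mmp2 with Mmp14. Correlations were computed over log2 CPM with the group mean removed, in the 32 primaries and the 16 transplants separately. The p-values came from 100000 two-sided permutations within groups, with adjustment over 14 correlations. The 16 transplants included the irradiated isotype group in which Mmp10 and Mmp13 were already known. Only the mean of that group was removed, so p-values in transplants are not independent of the choice of the set. The stromelysins Mmp3 and Mmp10 had Pearson's r = 0.97 and Spearman's rho = 0.94 in transplants (permutation p = 1e-05 for each, the smallest that these permutations can give, adjusted p = 7.0e-05 and 0.00014). In primaries they had r = 0.70 and rho = 0.67 (permutation p = 3.0e-05 and 4.0e-05, adjusted p = 0.00014 and 0.00019). Without the 2 tumors farthest from the median of Mmp10, the gene named second in the pair, r was 0.95 in transplants and 0.64 in primaries. For the other pairs, too, the tumors left out were the farthest by the member of the pair named second.

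Mmp10 and Mmp13 had r = 0.62 and rho = 0.54 in primaries (permutation p = 0.00034 and 0.0032, adjusted p = 0.0012 and 0.0090), and r = 0.56 and rho = 0.47 in transplants, which did not pass (permutation p = 0.066 and 0.12, adjusted p = 0.092 and 0.16). Without the 2 farthest tumors r was 0.53 and 0.59. Mmp3 and Mmp13 did not pass in either model after adjustment, with r = 0.35 and rho = 0.38 in primaries (permutation p = 0.038 and 0.036, adjusted p = 0.066 and 0.056) and r = 0.65 and rho = 0.62 in transplants (permutation p = 0.028 and 0.030, adjusted p = 0.055 and 0.056). Without the 2 farthest tumors r was 0.36 and 0.63. The whole library is shared by both genes of a pair, so sampling and tumor makeup are shared as well.

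**Figure D3:**
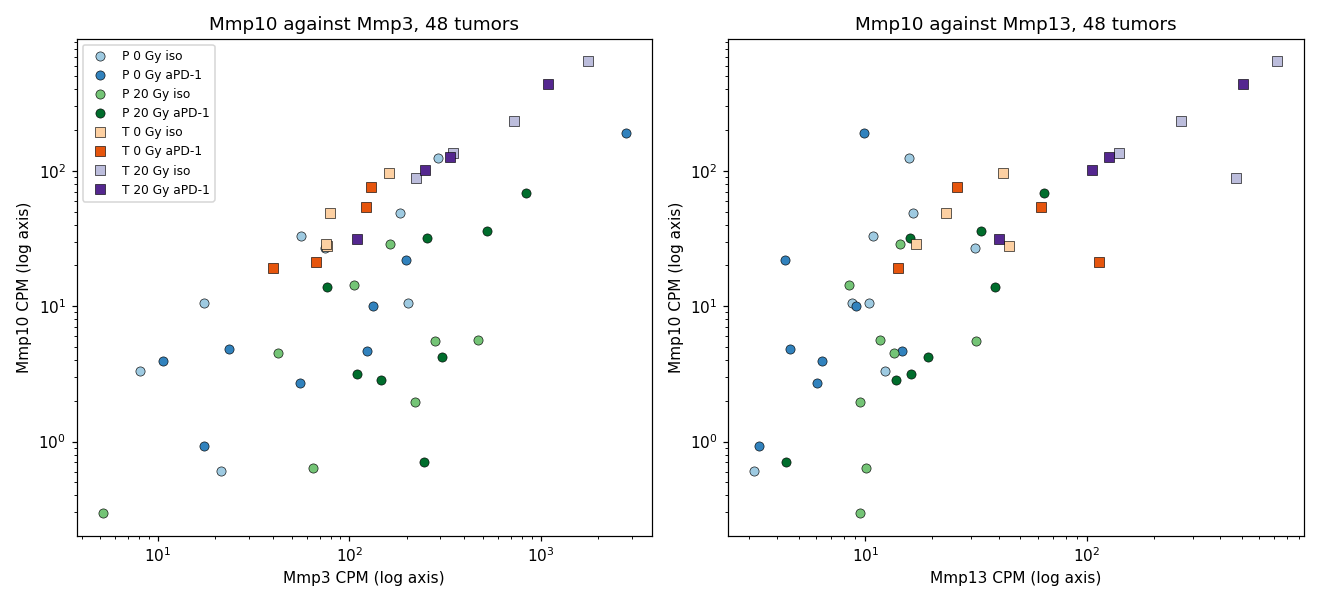
Mmp10 against Mmp3 (left) and Mmp10 against Mmp13 (right) in 48 tumors, as CPM on log axes; circles are primaries and squares are transplants, colored by group. The transplants follow a narrow band for Mmp3 and Mmp10 (r = 0.97 with group means removed), and the irradiated isotype transplant at 470.5 CPM of Mmp13 and 88.6 CPM of Mmp10 stands off the band of the right panel.

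Mmp2 and its activator Mmp14 had r = 0.91 and rho = 0.92 in transplants (permutation p = 1e-05 and 2.0e-05, adjusted p = 7.0e-05 and 0.00014) and r = 0.49 and rho = 0.57 in primaries (permutation p = 0.0065 and 0.0013, adjusted p = 0.015 and 0.0046). Without the 2 farthest tumors r was 0.90 and 0.52. Timp1 and Mmp3 had r = 0.46 and rho = 0.49 in primaries (permutation p = 0.0027 and 0.0059, adjusted p = 0.0075 and 0.014). In transplants they had r = 0.40 and rho = 0.35 (permutation p = 0.20 and 0.25, adjusted p = 0.25 and 0.32), and without the 2 farthest tumors r was 0.50 in primaries and 0.08 in transplants. Mmp9 did not follow the mean log2 CPM of the neutrophil markers. With that mean it had r = -0.02 and rho = -0.05 in primaries (permutation p = 0.90 and 0.79, adjusted p = 0.90 and 0.79). In transplants it had r = 0.33 and rho = 0.11 (permutation p = 0.44 and 0.73, adjusted p = 0.51 and 0.79). Without the 2 farthest tumors r was 0.07 in primaries and 0.14 in transplants. Mmp12 and the mean log2 CPM of the macrophage markers had r = -0.13 and rho = -0.18 in primaries (permutation p = 0.47 and 0.33, adjusted p = 0.51 and 0.39). In transplants they had r = -0.48 and rho = -0.56 (permutation p = 0.046 and 0.036, adjusted p = 0.072 and 0.056). Without the 2 farthest tumors r was -0.16 in primaries and -0.37 in transplants.

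For each gene, the 3 most similar genes were found by Pearson's r of log2 CPM over the 48 tumors, as a description. Mmp9 was most like Ctsk (cathepsin K, a protease of osteoclasts, r = 0.86), Slc9b2 (r = 0.84) and Atp6v0d2 (an osteoclast proton pump subunit, r = 0.72), and these were also the 3 most similar with group means removed. In untreated primary replicate 1, the tumor with 2003 CPM of Mmp9, Ctsk stood at 994 CPM and Acp5, the tartrate-resistant phosphatase of osteoclasts, at 1358 CPM. In primary replicate 5 given 20 Gy with anti-PD-1, at 2103 CPM of Mmp9, they stood at 1301 and 1183 CPM. Untreated primary replicate 7, with 39.7 CPM of Mmp9, held 140.7 CPM of Ctsk and 17.2 CPM of Acp5. Acp5 did not go with Mmp9 in every tumor. Untreated primary replicate 2 held 311 CPM of Mmp9 and 19.1 CPM of Acp5. Replicate 1 of the transplants given 20 Gy with isotype held 108.1 CPM of Mmp9 and 533 CPM of Acp5. The 2 tumors highest in Mmp9 were also the 2 highest in the sum of osteoclast markers, at 2744 and 2511 CPM.

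**Figure D4:**
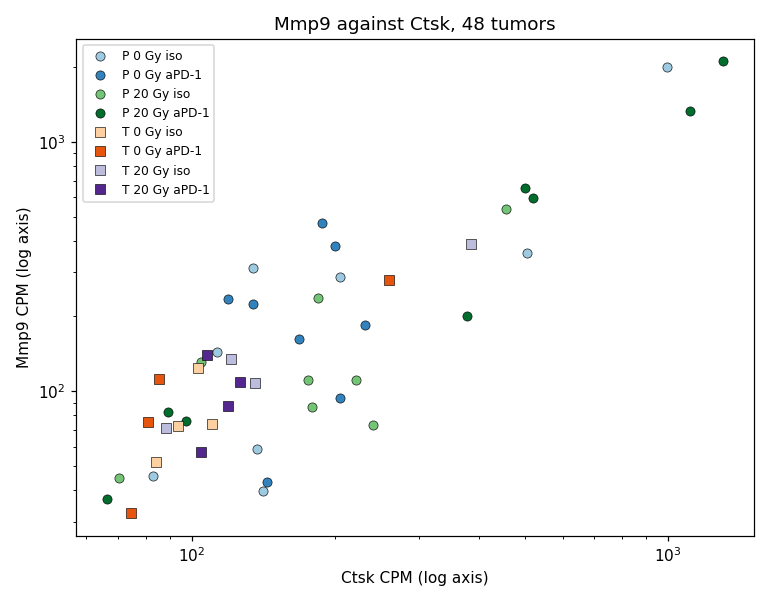
Mmp9 against Ctsk in 48 tumors, as CPM on log axes, with circles for primaries and squares for transplants. The points rise together (r = 0.86 over log2 CPM), and the 3 highest points, at 1327, 2003 and 2103 CPM of Mmp9, are all primaries.

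Mmp10 was most like Odaph (r = 0.85), Nppc (C-type natriuretic peptide, r = 0.78) and Grem1 (a BMP antagonist, r = 0.76), and with group means removed its nearest gene was Mmp3 (r = 0.73). Mmp13 was most like Abr (r = 0.81), Irak2 (an interleukin-1 receptor-associated kinase, r = 0.80) and Cln3 (r = 0.78), and with group means removed its nearest was Mmp10 (r = 0.56). Mmp3 was most like Ptges (prostaglandin E synthase, r = 0.75), Ier5 (r = 0.72) and Stx11 (r = 0.71). Timp1 stood nearest to the inflammatory genes Cxcl1 (r = 0.83), Cxcl2 (r = 0.80) and Il6 (r = 0.77). Timp2 was most like Nbl1 (r = 0.89), Radil and Il17rd (r = 0.83 for each), and with group means removed Reck was among its 3 nearest, a membrane-anchored MMP inhibitor (r = 0.75). Mmp2 was most like Slit3 (r = 0.79), Mmp14 like St3gal2 and Snx33 (r = 0.80 for each), Mmp12 like Sat1 (r = 0.72), and Timp3 like Adgrg6, Pdgfrl and Lrrk1 (r = 0.68 for each).

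The genes next to the chromosome 9 cluster were read in the same fit, out to 500 kb on either side. Of 18 genes there, 16 were tested. With isotype, radiation in transplants gave log2 fold changes of 3.02 for Mmp1a, 2.17 for Mmp1b, 1.27 for Mmp8 and 1.4 for Mmp27 (as a description), beside those of Mmp3, Mmp10, Mmp12 and Mmp13. The flanking genes Dync2h1 (a dynein heavy chain), Dcun1d5, Tmem123 and Yap1 (the Hippo pathway coactivator) had values of -0.15, -0.37, -0.06 and -0.18. Birc2 and Birc3 had values of 0.19 and 0.67, and Gm10709 and Gm45494 had -0.78 and -0.60. Mmp1a, Mmp1b, Mmp27, Gm10709 and Gm45494 were all low-count genes, with medians over all tumors of 0.505, 0.367, 0.476, 0.0924 and 0.279 CPM. The median of Mmp8 was 2.28 CPM. In primaries, Mmp8, the neutrophil collagenase, rose by 3.34 with isotype (edgeR adjusted p = 0.00285) and 4.91 with anti-PD-1 (edgeR adjusted p = 0.000214), and Mmp27 rose by 2.11 (edgeR adjusted p = 0.000805) and 1.73 (edgeR adjusted p = 0.00881).

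Mmp1a fell by 3.77 on the log2 scale in primaries given isotype (edgeR adjusted p = 0.0123), from a mean of 5.14 ± 12.2 CPM (SD, n = 8) to 0.374 ± 0.428 CPM, and the untreated mean included a tumor at 35.3 CPM. Mmp1a and Mmp1b are close copies, and Mmp1a is annotated as a polymorphic pseudogene, so their counts are uncertain. Birc3, an inhibitor of apoptosis, rose in primaries with isotype (0.66, edgeR adjusted p = 0.000731) and anti-PD-1 (0.65, edgeR adjusted p = 0.00192), and Birc2 rose with isotype (0.60, edgeR adjusted p = 0.00513).

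**Figure D5:**
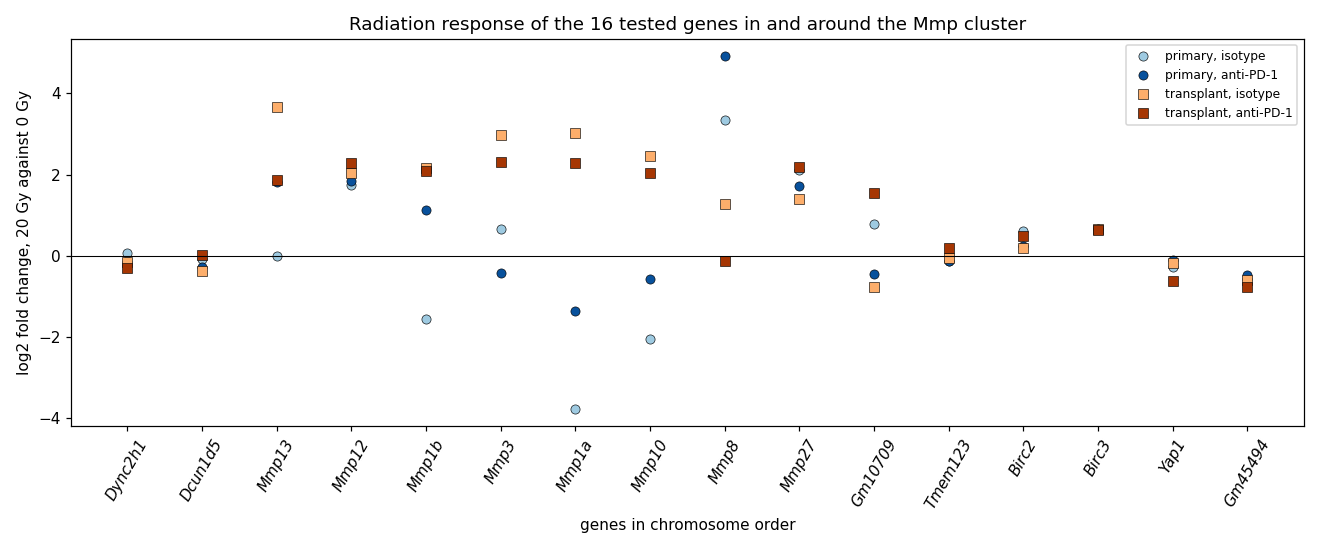
Log2 fold change for 20 Gy against 0 Gy of the 16 tested genes in and around the chromosome 9 cluster, in chromosome order, for 4 pairs of groups (circles, primaries; squares, transplants). Values spread widely from Mmp13 to Mmp27, from -3.77 for Mmp1a in primaries to 4.91 for Mmp8, and Dync2h1, Dcun1d5, Tmem123 and Yap1 lie between -0.63 and 0.18. Mmp1a, Mmp1b, Mmp27, Gm10709 and Gm45494 are low-count genes.

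The remaining MMPs and Timp4 form a list of 17 genes, of which 14 were tested. After radiation in primaries, 3 rose and 2 fell with isotype and 2 rose and 1 fell with anti-PD-1, with list medians of -0.02 and 0.16 against -0.01 and 0.02 over all genes, of which 18.3% and 11.2% passed. Those that rose with isotype were Mmp8, Mmp27 and Mmp25, a leukocyte membrane-type MMP (1.43 ± 0.437, edgeR adjusted p = 0.0179). Mmp16, another membrane-type MMP, fell by 1.21 on the log2 scale with isotype (edgeR adjusted p = 0.00411) and by 1.42 with anti-PD-1 (edgeR adjusted p = 0.00194). In transplants given anti-PD-1, 0 of 14 passed for radiation with edgeR, where 0.595% of all genes passed. Between models at 0 Gy with isotype, 2 of 14 were higher in transplants and 1 was lower, where 10.3% of all genes passed. Mmp8 (2.64 ± 0.877, edgeR adjusted p = 0.0449) and Mmp25 (1.71 ± 0.505, edgeR adjusted p = 0.0236) were higher, and Mmp17 was lower (-1.91 ± 0.461, edgeR adjusted p = 0.00529).

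Of 15 cytokines and receptors known to lie upstream of MMPs, 7 rose after radiation in primaries given isotype and 9 in primaries given anti-PD-1, and 0 fell. The list medians were 0.72 and 1.0, against -0.01 and 0.02 over all genes, of which 18.3% and 11.2% passed. Il1a rose by 2.99 ± 0.701 (edgeR adjusted p = 0.00219) and 3.60 ± 0.718 (edgeR adjusted p = 0.000973), and Il6 by 2.52 ± 0.675 (edgeR adjusted p = 0.00710) and 3.33 ± 0.696 (edgeR adjusted p = 0.00151). In transplants given anti-PD-1, 0 of 15 passed with a list median of 0.28, in a comparison where only 0.595% of all genes passed. The list median was 0.55 in transplants given isotype, as a description. Untreated transplants were above untreated primaries in 5 of 15, in a comparison where 10.3% of all genes passed. Among these 5 were the EGF receptor ligands Ereg (1.96 ± 0.388, edgeR adjusted p = 0.000753) and Areg (2.79 ± 0.553, edgeR adjusted p = 0.000769).

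Of 13 AP-1, Ets and Runx factors, 3 passed for radiation in primaries given isotype, where 18.3% of all genes passed, and all of them fell: Etv4 (-0.86), Etv1 (-0.74) and Ets1 (-0.62), with edgeR adjusted p-values of 0.0296, 0.0330 and 0.00785. Between untreated transplants and untreated primaries 1 of the 13 passed, where 10.3% of all genes passed. That gene was Jun, an AP-1 subunit, lower in transplants (-0.73 ± 0.220, edgeR adjusted p = 0.0279). Of 14 matrix substrates, 0 were higher and 4 lower in transplants at 20 Gy with anti-PD-1, with a list median of -1.44 against -0.04 over all genes, of which 6.76% passed. These were Fn1 (fibronectin, -2.10 ± 0.506, edgeR adjusted p = 0.0120), Dcn, Col4a1 and Col4a2. The median of 7 fibroblast markers, a list that shares Dcn, was -1.27 in that comparison, with Dcn and Pdgfrb lower, and their part in the result was not tested. Of 14 ADAM and ADAMTS proteases, Adam8 rose (1.39 ± 0.331, edgeR adjusted p = 0.00246) while Adam19 (-1.28 ± 0.252, edgeR adjusted p = 0.000336) and Adam10 (-0.43 ± 0.131, edgeR adjusted p = 0.0183) fell after radiation in primaries given isotype, 3 calls where 18.3% of all genes passed. Of 13 genes of plasminogen activation and MMP regulation, 1 passed for radiation in primaries given anti-PD-1, the protease inhibitor A2m (3.29 ± 1.10, edgeR adjusted p = 0.0445), and 0 with isotype, where 11.2% and 18.3% of all genes passed. A2m was near the floor, at a mean of 0.956 ± 2.14 CPM (SD) at 20 Gy and 0.0914 ± 0.1 CPM at 0 Gy.

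The 2 libraries of line 402230 have no replicate, and their values are on a scale set over all 50 libraries. In the library labelled as the parental tumor, Mmp9 stood at 1.48 CPM and Mmp12 at 0.591 CPM, below all 48 tumors, while Mmp2 at 272, Mmp14 at 327, Timp1 at 388, Timp2 at 833 and Timp3 at 183 CPM lay inside the tumor range. Its 8 macrophage markers summed to 3.84 CPM. In the library labelled as the cell line, Mmp9 stood at 355 CPM and Mmp12 at 10.9 CPM, and 8 macrophage markers summed to 1765 CPM. Mmp3, Mmp10 and Mmp13 stood at 26.8, 7.46 and 4.14 CPM in the first and at 94.3, 21.1 and 12.3 CPM in the second. Of the 48 tumors, 17 lay below the first library and 23 below the second for Mmp10.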

How the data were processed

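Bulk RNA from 48 tumors and 2 libraries of line 402230 was sequenced from stranded poly(A) libraries. After trimming (Trimmomatic 0.36) and STAR alignment to mm10, the authors counted reads per gene of GENCODE M17 and deposited these counts without normalization. The strand setting of the counting is not given in the sources used here. Of 37469 identifiers, 37408 were matched to a symbol through GENCODE M21, and the table held 0 columns that could not be mapped to a sample.

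Groups came from the sample labels. Replicate numbers only follow accession order, and the labels of the tumors name separate tumors. Genes were filtered with filterByExpr, which left 19327, and CPM were computed with TMM scaling in edgeR 4.0.16 (R 4.3.3). All 8 tumor groups were fitted in 1 robust quasi-likelihood model, so they share an estimate of the spread, and p-values were adjusted over all genes by the Benjamini-Hochberg method with a threshold of 0.05. Fold changes are log2 with SE. Log2 CPM used a prior count of 2. Total counts of 31810461 to 54008259 per tumor set the counting precision. Correlations used 100000 permutations within groups. Similar genes were the 3 with the highest Pearson's r among genes with an average log2 CPM of at least 2.

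The members, gene lists and tests were chosen with earlier results of these data known, and comparisons between groups that held those results have no test. The correlations in transplants included those tumors and do have p-values. Named genes were the 10 members, and members of the lists that passed the test. Muscle-rich tumors were left out as an alternative chosen after seeing the data. The other alternatives were DESeq2 1.42.0, limma voom 3.58.1, no filter, RLE size factors, no TMM scaling of levels, group means kept or removed, only the groups compared, the parental library added, and leaving out each transplant tumor.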

Additional observations from a re-analysis of the deposited data

Results flagged for a closer look

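In 4 of the 80 combinations of gene and group, 1 tumor lay far from the others of its group by the gap to its nearest neighbour over the range of log2 CPM (Dixon's 95% limit), and chance flags about 1 in 20. Mmp2 was 158 CPM in replicate 1 of the primaries given 20 Gy with anti-PD-1, below the other 7 at 569 to 1392 CPM. Mmp3 was 161 CPM in replicate 1 of the untreated transplants, above the others at 75.3 to 79.3 CPM. Mmp13 was 31.6 CPM in replicate 3 of the primaries given 20 Gy with isotype, above the others at 8.47 to 14.4 CPM. Timp3 was 158 CPM in replicate 4 of the transplants given 20 Gy with anti-PD-1, above the others at 85.8 to 90.1 CPM.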

How the results depend on the processing

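Counts of members past the threshold moved as follows. Between untreated transplants and primaries (main count 1) it was 3 with DESeq2, 0 with no filter, 0 with only the groups compared and 0 with the parental library added, and 0 to 1 when 1 transplant was left out. At 0 Gy with anti-PD-1 (main count 2) it was 1 with only the groups compared, and 1 to 2 when 1 transplant was left out. At 20 Gy with anti-PD-1 (main count 1) it was 4 with DESeq2, 2 with limma voom, 0 with only the groups compared, 3 without the 3 tumors richest in muscle RNA, and 0 to 1 when 1 transplant was left out. At 20 Gy with isotype the 5 genes past 2-fold became 3 without the muscle-rich tumors. For anti-PD-1 in irradiated transplants the 1 gene past 2-fold became 0 to 4 when 1 transplant was left out, with 0 without anti-PD-1 replicate 2 or 3 and 4 without its replicate 1. For radiation in primaries given isotype (main count 2) it was 1 with only the groups compared and 3 with DESeq2, with the parental library added or without the muscle-rich tumors, each time with Mmp12 gained. With anti-PD-1 (main count 3) it was 0 with limma voom, 1 with only the groups compared, 4 with DESeq2, where Mmp12 was gained, and 2 with no filter, with the parental library added, without the muscle-rich tumors or without any of 3 single transplants. With group means kept, Mmp12 and macrophage markers had r of 0.09 in primaries and 0.06 in transplants, against -0.13 and -0.48 without them. Fits of only the groups compared use fewer samples. The cause of the other shifts was not tested.

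Of 3220 fold changes of members under an alternative, 12 came to pass the threshold and 27 no longer passed, 8 without a test moved by more than 1 SD, and 46 with a test changed sign, none of them past the threshold before or after. Their log2 values follow, with the main value in parentheses. For untreated transplants against primaries, Mmp3 (-0.13) was 0.67 with limma voom, Timp1 (0.01) was -0.05 with the parental library added and -0.10 to 0.12 when 1 transplant was left out. For transplants against primaries at 0 Gy with anti-PD-1, Mmp12 (0.04) was -0.34 to 0.20 when 1 transplant was left out, Mmp14 (0.08) was -0.06 to 0.25 when 1 transplant was left out. For transplants against primaries at 20 Gy with anti-PD-1, Mmp3 (0.52) was -0.45 to 0.83 when 1 transplant was left out, Mmp12 (0.48) was -1.0 to 0.78 when 1 transplant was left out. For radiation in primaries given isotype, Timp3 (-0.05) was 0.01 with DESeq2 or with RLE size factors or with the parental library added and 0.49 with limma voom and 0.02 with only the groups compared. For radiation in primaries given anti-PD-1, Mmp3 (-0.42) was 1.51 with limma voom, Mmp10 (-0.57) was 0.13 with limma voom, Mmp14 (-0.02) was 0.03 without the muscle-rich tumors. For radiation in transplants given anti-PD-1, Mmp9 (-0.35) was -0.67 to 0.43 when 1 transplant was left out, Timp1 (0.07) was -0.10 to 0.27 when 1 transplant was left out. For anti-PD-1 in primaries at 0 Gy, Mmp9 (-0.85) was 0.02 with limma voom, Mmp10 (-0.12) was 0.04 with the parental library added, Mmp12 (0.16) was -0.09 with limma voom. For anti-PD-1 in primaries at 20 Gy, Timp1 (-0.03) was 0.17 without the muscle-rich tumors. For anti-PD-1 in transplants at 0 Gy, Mmp2 (0.03) was -0.11 to 0.22 when 1 transplant was left out, Mmp3 (-0.12) was -0.35 to 0.22 when 1 transplant was left out, Mmp9 (0.63) was -0.14 to 0.96 when 1 transplant was left out, Mmp10 (-0.24) was -0.67 to 0.28 when 1 transplant was left out, Mmp12 (-0.57) was -0.95 to 0.03 when 1 transplant was left out, Mmp14 (0.13) was -0.01 to 0.32 when 1 transplant was left out, Timp1 (0.04) was -0.06 to 0.22 when 1 transplant was left out, Timp2 (0.01) was -0.02 with limma voom and -0.14 to 0.16 when 1 transplant was left out. For the difference in radiation response between models with anti-PD-1, Mmp12 (0.44) was -0.17 with limma voom and -1.02 to 0.83 when 1 transplant was left out, Mmp13 (0.05) was -1.06 to 0.71 when 1 transplant was left out. No paired analysis was possible because replicate numbers follow accession order and pair no tumors. With 4 transplants a group, members with a within-group SD above 1 on the log2 scale have wide errors.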
